A study of Homo sapiens with 4 samples.

Results

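The matrix metalloproteinases MMP1, MMP2, MMP3, MMP7, MMP9, MMP10, MMP13 and MMP14 and the inhibitors TIMP1 and TIMP2 were examined in cells treated with DNA demethylating drugs. These 10 genes were chosen by name, and their probes were found through the RefSeq accessions of the array design, which gave 10 probes and 19 spots of 58201 probes and 60901 gene spots. The array had 25006 named genes in all. MMP1 was the only one of the 10 with more than 1 spot, and had 10 spots of the same probe.

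HML58-3 cells are derived from the human colon cancer cell line HCT116 and hold a luciferase gene driven by a methylated promoter, also in the mock group. The study compared mock treatment with DAC (decitabine, a nucleoside analogue that depletes the maintenance DNA methyltransferase) and with OR-2003 and OR-2100, compounds that the study made as prodrugs of DAC. Cells were seeded on day 0, received 1 µM of a drug on day 1 and were collected on day 5, and each of the 4 conditions was measured on 1 one-colour Agilent expression array. Differences between conditions could therefore not be checked against replicates, and p-values are not given. In bulk RNA, more cells expressing a gene and more RNA per cell cannot be told apart.

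Matrix metalloproteinases are zinc endopeptidases that cleave collagens, gelatin, laminin, proteoglycans and many secreted and cell surface proteins. They are made as inactive proenzymes that are activated by proteolysis, and the active forms are blocked by the tissue inhibitors of metalloproteinases (TIMPs). In the colon most of these genes are expressed by stromal and inflammatory cells, whereas MMP7 is characteristic of tumour epithelium and is a known target of Wnt signalling.

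Log2 values, differences and folds are from log2 intensities from which each array's own 75th percentile over gene probes was subtracted. Intensities not on the log2 scale are given without this scaling. The 75th percentile was 152 on the mock array and 166 to 176 on the drug arrays, so that ratios of these intensities differ from the folds. Spots were called well above background by the scanner software. Following the thresholds of the study, induced genes were those that exceeded the mock value by 2-fold or more and whose level with the drug was no lower than -1. Reduced genes were 2-fold or more below the mock value, with a mock level no lower than -1. Between 31601 and 33282 probes per array were well above background, and none was saturated. The lowest signal well above background had an intensity between 7.50 and 8.26. The spike-in slope of the mock array was 0.899, which the scanner software flagged, and those of the drug arrays were 0.913 to 0.955 and were accepted. This slope belongs to the array against which every difference below was taken, and its part in the results was not tested.

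Of the 10 genes, MMP1 and MMP9 were induced by DAC, OR-2003 and OR-2100 alike, and MMP7 was reduced by all 3 drugs. MMP13 passed the background limit on the 3 drug arrays but not on the mock array, while TIMP1 was between 1.52-fold and 1.79-fold higher with the drugs. MMP14 and TIMP2 differed from the mock array by at most 0.34 on the log2 scale, and MMP2, MMP3 and MMP10 were not well above background on any array. The 2 induced genes stood beside 5.77%, 5.89% and 5.81% of all named genes induced by DAC, OR-2003 and OR-2100, and beside 5.27% induced by all 3. The 1 reduced gene stood beside 5.96%, 6.05% and 6.82%, and beside 5.21% reduced by all 3. The median log2 difference over the 10 genes was 0.37 with DAC, 0.42 with OR-2003 and 0.59 with OR-2100, compared with -0.12, -0.09 and -0.23 over all named genes. With 10 genes, these shares and medians describe the genes and were not tested.

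The collagenases MMP1 and MMP13 cut fibrillar collagen and lie in the same gene cluster on chromosome 11. MMP1 had a mean intensity of 13.7 ± 3.09 (SD, n = 10 spots) on the mock array, 350.0 ± 21.6 (SD, n = 9) with DAC, 380.1 ± 23.7 (SD, n = 10) with OR-2003 and 434 ± 11.9 (SD, n = 9) with OR-2100. The spots ranged from 7.89 to 18.7 on the mock array, where 9 of 10 were well above background, and from 312 to 454 over the drug arrays, so that no drug spot overlapped the mock spots. On the log2 scale MMP1 was higher by 4.50 ± 0.36 with DAC, 4.71 ± 0.36 with OR-2003 and 4.82 ± 0.35 with OR-2100, where the error combines the SDs of the spots. These differences correspond to 22.7-fold, 26.1-fold and 28.3-fold. MMP1 ranked 72nd, 60th and 58th from the top among the 15977 genes well above background on all 4 arrays, of which 8.56%, 8.67% and 8.31% were at least 2-fold higher. The size of the fold rested on a mock signal close to background. With normexp background correction, which adds an offset to all signals and weighs most on low ones, MMP1 was 4.72-fold, 5.46-fold and 5.71-fold higher. With scaling to the 75th percentile of bright probes its levels with DAC and OR-2003 were -1.24 and -1.03, and these 2 calls were lost.

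**Figure D1:**
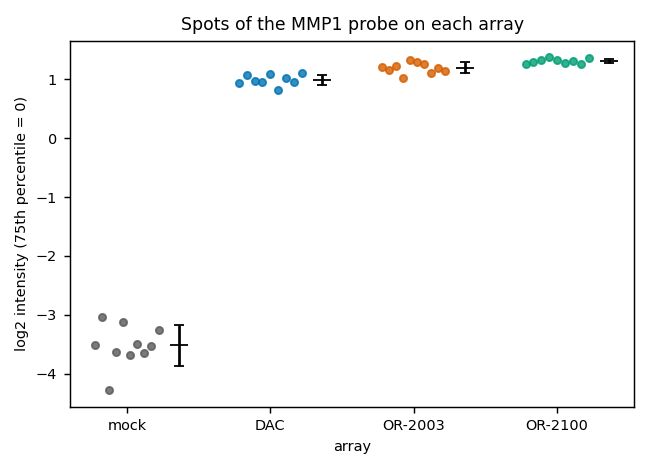
Log2 intensity (y axis, 75th percentile at 0) of each used spot of the MMP1 probe on the 4 arrays (x axis), with the mean and SD of the spots beside them. The mock spots lie between -4.27 and -3.03 and the spots of the drug arrays between 0.82 and 1.37, and spots of 1 array are repeated measurements of 1 sample.

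MMP13 had an intensity of 1.98 on the mock array, which was not well above background, and of 59.6 ± 6.34 with DAC, 52.2 ± 5.61 with OR-2003 and 59.7 ± 6.29 with OR-2100 (± the error given by the scanner software, 1 spot). All 3 drug arrays were above and the mock array was below the limit of measurement. Set against that limit, the level of MMP13 was raised at least 6.59-fold by DAC, 6.13-fold by OR-2003 and 6.62-fold by OR-2100. Its level with the drugs was between -1.67 and -1.56, under the threshold of -1, so that it was not counted as induced. It was counted as induced by all 3 drugs with scaling to the median, which raises all levels, and without a level threshold. Among 8041 genes without a mock signal well above background, DAC brought 22.4%, OR-2003 24.5% and OR-2100 23.6% over it. After normexp correction the MMP13 values were 1.69-fold, 1.54-fold and 1.58-fold higher, which is below the bounds given above.

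The gelatinases MMP2 and MMP9 cleave denatured collagen and the type IV collagen of basement membranes. MMP9 had an intensity of 190 ± 19.0 on the mock array, 1543 ± 154 with DAC, 1453 ± 145 with OR-2003 and 1524 ± 152 with OR-2100, each from 1 spot. The 3 drug arrays were high and close to each other, and the mock array stood apart by far more than the error of a spot. The log2 difference from the mock array was 2.81, 2.81 and 2.80, each ± 0.20, or 7.03-fold, 7.02-fold and 6.97-fold. MMP9 had the steadiest difference among the 3 genes that were counted as induced or reduced: over all alternative settings it stayed between 2.51 and 3.02. It ranked 264th, 274th and 279th from the top of the 15977 genes. MMP2 was at 1.77 on the mock array, 3.54 with DAC, 1.78 with OR-2003 and 1.70 with OR-2100. These intensities were not well above background, so that no fold is given for MMP2.

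Matrilysin, the product of MMP7, is a small metalloproteinase of epithelial cells that lacks the hemopexin domain of most of the family. Its promoter is shown because MMP7 was the only one of the 10 genes that was reduced. The 250 bases before the start of MMP7 (RefSeq, GRCh38.p14, chr11:102530748-102530997, minus strand) are printed 5′ to 3′ with capitals for CpG dinucleotides and for matches to AP-1 and TCF/LEF motifs.
MMP7: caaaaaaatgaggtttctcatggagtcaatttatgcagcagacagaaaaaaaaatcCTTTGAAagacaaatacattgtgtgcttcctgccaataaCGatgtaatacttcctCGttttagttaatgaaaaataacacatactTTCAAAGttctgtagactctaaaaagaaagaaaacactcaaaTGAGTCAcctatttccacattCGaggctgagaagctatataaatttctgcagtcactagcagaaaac
The window held 3 CpG dinucleotides, compared with a median of 11 over 35116 promoters of the table. An AP-1 match (TGAGTCA, searched on both strands) lay at -67 to -61 from the start, and such a match was found in 4.2% of all promoters of the same length. TCF/LEF matches (CTTTGAA, or the same letters ending in T, searched on both strands) lay at -194 to -188 and at -109 to -103, and 5.94% of all promoters held at least 1. A match describes the letters and is not evidence of binding.

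MMP7 had an intensity of 85.8 ± 8.78 on the mock array, 25.8 ± 3.24 with DAC, 28.2 ± 3.39 with OR-2003 and 18.9 ± 2.60 with OR-2100. All arrays were well above background, the mock array was the highest and the OR-2100 array the lowest. MMP7 fell by 1.95 ± 0.23 with DAC, 1.73 ± 0.23 with OR-2003 and 2.39 ± 0.25 with OR-2100 on the log2 scale, which is 3.85-fold, 3.32-fold and 5.25-fold lower. Among the 15977 genes it ranked 211th, 360th and 97th from the bottom, where 11.1%, 11.0% and 12.6% of the genes were at least 2-fold lower. The level of MMP7 on the mock array, -0.83, was close to the threshold of -1, and scaling to the 75th percentile of bright probes or of spots took it under that threshold while the difference stayed between -2.48 and -1.53 over the scalings. After normexp correction the differences were -0.87, -0.89 and -1.09, so that only OR-2100 kept a 2-fold difference.

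The stromelysins MMP3 and MMP10 degrade proteoglycans and laminin and can activate other proenzymes. MMP3 had intensities of 1.63, 1.71, 2.03 and 1.55 and MMP10 of 2.01, 2.32, 3.48 and 6.66 on the mock, DAC, OR-2003 and OR-2100 arrays. All of these values were below the lowest signal well above background on their arrays, so that no difference of MMP3 or MMP10 was measurable here.

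MMP14 is anchored in the cell membrane and activates the proenzyme of MMP2 together with TIMP2. Its intensity was 49.5 ± 5.21 on the mock array, 62.5 ± 6.50 with DAC, 57.6 ± 6.02 with OR-2003 and 72.4 ± 7.41 with OR-2100. The log2 differences were 0.13, 0.10 and 0.34, each ± 0.21, and for DAC and OR-2003 they were smaller than the error within the arrays. For OR-2003 the sign turned with scaling to the median, at -0.13, and with quantile normalization, at -0.02.

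TIMP1 binds most metalloproteinases and is encoded on the X chromosome. The 250 bases before its start (RefSeq, GRCh38.p14, chrX:47582186-47582435, plus strand) are shown beside those of MMP7 because TIMP1 was higher with the drugs, with capitals for CpG dinucleotides.
TIMP1: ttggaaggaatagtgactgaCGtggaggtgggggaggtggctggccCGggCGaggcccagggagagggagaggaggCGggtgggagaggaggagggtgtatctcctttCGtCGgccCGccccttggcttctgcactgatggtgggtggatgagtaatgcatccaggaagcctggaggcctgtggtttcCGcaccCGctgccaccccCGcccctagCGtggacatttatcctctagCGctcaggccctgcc
This window held 12 CpG dinucleotides and no match to the AP-1 or TCF/LEF letters given above. MMP10 had 2 and MMP14 had 7 CpG dinucleotides in the same window, and the other 6 genes had no entry in the table.

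TIMP1 had an intensity of 4701 ± 470.1 on the mock array, 8271 ± 827 with DAC, 8090.5 ± 809 with OR-2003 and 9693 ± 969 with OR-2100. The mock array was the lowest and the OR-2100 array the highest. The log2 difference was 0.60 with DAC, 0.66 with OR-2003 and 0.84 with OR-2100, each ± 0.20, or 1.52-fold, 1.58-fold and 1.79-fold, and was higher than these errors in all 3 arrays. Of the 15977 genes, 14.3%, 13.4% and 10.1% rose by as much or more, and over the scalings the difference lay between 0.43 and 1.11. TIMP1 passed 2-fold only with OR-2100, under scaling to the 75th percentile of bright probes and under quantile normalization.

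TIMP2 had intensities of 13778 ± 1378, 15819.7 ± 1582, 15381 ± 1538 and 14453 ± 1445 on the mock, DAC, OR-2003 and OR-2100 arrays. The log2 differences of TIMP2 were -0.01, 0.03 and -0.14, each ± 0.20, all within the error of the arrays. Their signs turned with the scaling, over which the differences lay between -0.23 and 0.25.

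The cluster on chromosome 11 was examined because MMP1, MMP7 and MMP13 lie in it. In the RefSeq annotation of GRCh38.p14, used for order only, 9 metalloproteinase genes follow each other without another coding gene between them, in the order MMP7, MMP20, MMP27, MMP8, MMP10, MMP1, MMP3, MMP12 and MMP13. MMP7 and MMP13 are the ends of this row. Signals well above background were found for MMP7 and MMP1 on all 4 arrays and for MMP13 on the drug arrays. The 6 genes between and beside them (MMP20, MMP27, MMP8, MMP10, MMP3 and MMP12) were not well above background on any array, MMP1's direct neighbours MMP10 and MMP3 included. Within this row MMP7 was lower with the drugs, while MMP1 was higher and MMP13 rose over the background limit.

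The 3 drugs were compared with each other at the same dose and, by the schedule taken above, the same time, over 3 pairs and the 10 genes. None of the 10 genes was 2-fold apart between drugs with a level of -1 or more, beside 0.00800% of all named genes for OR-2003 against DAC, 0.00800% for OR-2100 against DAC and 0.00400% for OR-2100 against OR-2003. MMP1 was 0.32 ± 0.10 higher on the log2 scale with OR-2100 than with DAC, and stayed between 0.27 and 0.35 higher over the settings. The spots of MMP1 with OR-2100 (log2 1.25 to 1.37) did not overlap those with DAC (0.82 to 1.11). MMP7 was 0.66 ± 0.26 lower with OR-2100 than with OR-2003 and 0.45 ± 0.27 lower than with DAC, and after normexp correction 0.20 and 0.22 lower. These errors are within arrays, and the spread between cultures treated with the same drug is not known. MMP9 differed between drugs by at most 0.01 ± 0.20 and TIMP1 by at most 0.23 ± 0.20.

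The remaining genes of the matrix protease system were followed in lists of other metalloproteinases, other inhibitors, activators of the proenzymes, transcription factors known for these promoters, ligands that induce them and other metzincins, 76 genes in all. By the same rule, 8 of the 76 (10.5%) were induced and 5 (6.58%) were reduced by all 3 drugs, and 63 were neither, beside the 5.27% and 5.21% of all named genes. The reduced share was thus near that of all genes. Since the lists were chosen with earlier results of these data known, the induced share is no test of an excess. With each gene given by its probe brightest on the mock array, 6 of the 76 (7.89%) were induced, beside 4.93% of all genes, since MMP19 and ADAM33 were lost, and the same 5 were reduced. Among 15 other metalloproteinases, 2 were induced and 1 was reduced. MMP23B was 6.48-fold higher with DAC, 6.22-fold with OR-2003 and 6.63-fold with OR-2100, and since a near-identical copy (MMP23A) exists, the signal cannot be given to 1 of them. MMP19 was higher by 1.25, 1.39 and 1.41 on the log2 scale at the probe with the higher mean signal. Its other probe, which was the brighter one on the mock array, gave -0.45, -0.53 and -0.12, so that the call of MMP19 rests on the choice of probe. MMP11, a secreted metalloproteinase first described in breast tumour stroma, was lower by 2.22-fold, 2.26-fold and 2.38-fold. After normexp correction its log2 differences were -0.66, -0.68 and -0.75, under 2-fold with each drug. Over the scalings, those with DAC and OR-2003 came as close as -0.95 and -0.98, also under 2-fold. Of 5 other inhibitors, TFPI2, a serine protease inhibitor of the matrix, was induced and was at least 85.2-fold, 91.2-fold and 84.8-fold higher than a mock signal that was not well above background. After normexp correction its log2 difference was 3.39, 3.54 and 3.36, which is below these bounds.

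Of 11 genes around the activation of the proenzymes, PLAU, the urokinase that starts the plasmin cascade, was the only one reduced, by 2.93-fold with DAC, 3.23-fold with OR-2003 and 2.75-fold with OR-2100, with both of its probes lower, and none was induced. Of 19 transcription factors and cofactors, LEF1 was induced and ETV1 and TCF7L2 were reduced by all 3 drugs. LEF1, which acts with beta-catenin, was at least 25.9-fold, 26.7-fold and 30.9-fold higher. After normexp correction its log2 difference was 2.38, 2.37 and 2.62, which is below these bounds. TCF7L2, another partner of beta-catenin, was lower by 3.26-fold, 3.43-fold and 3.28-fold, and ETV1, an ETS factor, by 8.89-fold, 7.92-fold and 10.3-fold, with all of their probes lower. Of the AP-1 subunits of the list, none was induced or reduced by all 3 drugs. FOSB passed the threshold with OR-2100 only, at 2.16-fold (1.72-fold with DAC and 1.87-fold with OR-2003). FOS was 1.97-fold, 1.79-fold and 1.99-fold and JUN 1.81-fold, 1.65-fold and 1.81-fold higher, both under 2-fold with each drug. Of 11 ligands and inducers, TNF was at least 43.0-fold, 42.6-fold and 49.4-fold higher, and OSM was 4.65-fold, 4.59-fold and 4.95-fold higher at 1 of 3 probes only. After normexp correction the log2 differences of TNF were 2.61, 2.57 and 2.77, below its bounds. Those of OSM were 0.78, 0.80 and 0.87, under 2-fold. Of the 69 differences of genes called in these lists, the 10 genes and the marker lists, 19 were under 2-fold with normexp. None changed sign over the scalings or with normexp correction. These genes were chosen for differences of 2-fold or more, larger than the shifts between scalings, so that an unchanged sign is no test of them.

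Since metalloproteinases are also made by stromal and immune cells, markers of other cell types were summed, on a linear scale with the 75th percentile at 1. Epithelial markers had a summed level of 1306 on the mock array and 1588 to 1685 with the drugs. Most of this sum came from the keratins KRT18 (440 on the mock array) and KRT19 (648). EPCAM and CDH1, which define epithelial cells, were reduced by all 3 drugs, while LGALS4 was induced. The log2 differences were -1.49, -1.52 and -1.46 for EPCAM and -1.09, -1.18 and -1.25 for CDH1. After normexp correction CDH1 differed by -0.97, -1.09 and -1.13 and LGALS4 by 0.91, 1.04 and 0.99. CDH1 with DAC, and LGALS4 with DAC and OR-2100, were then under 2-fold. On the mock array VIL1 was the 1 epithelial marker of 8 that was not well above background. Fibroblast markers had a sum of 2.29 on the mock array and of 10.2 to 10.6 with the drugs, most of which was THY1. THY1 reached 5.93 with DAC, 6.29 with OR-2003 and 6.12 with OR-2100, and its mock signal was not above the limit of measurement. Of the 9 fibroblast genes, 7 were well above background with each drug against 2 on the mock array, so that 5 of the 7 dark ones were brought over it, beside the 22.4% to 24.5% of all genes given above. COL3A1 and LUM were not well above background on any array, and PDGFRB was lower at the probe used, by -0.63, -0.29 and -1.08. The other PDGFRB probe went the opposite way. Its mock signal was under the background limit, and with the drugs it passed the limit, at log2 levels of -2.75, -2.78 and -2.64. The direction of PDGFRB thus rests on the choice of probe. Macrophage markers had a sum of 0.990 on the mock array and of 4.56 to 5.11 with the drugs, most of which was CSF1R, at 0.250 and then at 3.26, 3.85 and 3.51. CD14 was also induced, but differed by 0.84, 0.86 and 0.85 after normexp correction, under 2-fold with each drug. ITGAM differed by -0.18, -0.20 and -0.15. PTPRC, the pan-leukocyte marker, differed by -0.31, -0.27 and -0.16 at the probe used, but its 5 probes disagreed. At another probe, a mock signal under the background limit rose over it, to log2 levels of -2.84, -3.40 and -2.74 with the drugs. A further probe was lower by -1.03, -0.42 and -1.19, and the remaining ones were not well above background on any array. MRC1 and FCGR3A were not well above background on any array, and 4 of 7 macrophage genes were so on the mock array and 5 with each drug. Endothelial markers had a sum of 0.546 and then of 2.72 to 2.77, most of which was VWF, at 0.239 and then at 1.75, 1.68 and 1.81. The other VWF probe, well above background on all 4 arrays, differed by only -0.05, -0.01 and -0.12. The rise of VWF, and with it most of the rise of this sum, thus rests on the choice of probe. KDR was not well above background on any array, and CDH5 differed by -0.19, 0.03 and -0.73. PECAM1, TEK and CLDN5 had mock signals under the background limit and passed it with each drug. PECAM1 was at least 8.40-fold higher with DAC, 8.90-fold with OR-2003 and 9.05-fold with OR-2100. The bounds were 3.03-fold, 2.93-fold and 2.77-fold for TEK and 3.97-fold, 3.30-fold and 3.21-fold for CLDN5. Thus 3 of the 4 dark endothelial genes were brought over the limit, beside the same 22.4% to 24.5%. These sums moved with MMP1, MMP9 and MMP13 in a cultured cell line, and their part in the values of the 10 genes was not tested.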

How the data were processed

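Expression was measured in HML58-3 cells with SurePrint G3 Human GE 8x60K arrays, 1 per condition. The deposited values were background-corrected spot intensities from Agilent Feature Extraction 12.1.0.3, which the authors had not normalized between arrays. A deposited value table held the same values. From there, spots marked as outliers (52 to 98 per array) were left out, log2 intensities of the spots of a probe were averaged, and the 75th percentile of 58201 gene probes was set to 0. The background call of a probe followed the majority (over 0.5) of its used spots. Probes were named through RefSeq accessions (34892 probes, 25006 genes), and a gene with several probes is given by the probe with the highest mean signal over the arrays, a choice that a change with the drugs can decide. A probe not well above background on one side has only a bound, "at least N-fold", set against the lowest signal well above background or its own signal. Such a bound belongs to the deposited background correction and does not hold under normexp. Precision is limited by the number of arrays.

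The 10 genes and the lists were chosen with earlier results of these data known. All 10 genes are named, and of the other lists up to 4 genes induced or reduced by all 3 drugs. For each called gene well above background on all 4 arrays, the 2 genes with the smallest Euclidean distance between mean-centred log2 values are also named. No test was run. Alternatives were other scalings (bright probes, median, quantile), normexp (offset 50, on the median spot signal and local background), a floor at the background limit, the value table, marked spots kept, the mean of probes, dim probes left out, a 4-fold threshold and no level threshold. A percentile over spots and, for the gene lists, the probe brightest on the mock array were added after seeing the data. The counting was tested on simulated data. Python 3.11.15, numpy 2.4.6, pandas 2.3.3, matplotlib 3.10.9, R 4.3.3 and limma 3.58.1 were used.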

Additional observations from a re-analysis of the deposited data

How the results depend on the processing

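Scaling to the 75th percentile of bright probes (those over background on all 4 arrays) left 1 gene of the 10 (MMP9) induced by DAC and 1 by OR-2003, while 3 (MMP1, MMP9 and TIMP1) were induced by OR-2100 and 0 were reduced by DAC, OR-2003 or OR-2100. MMP1 lost its call with DAC and OR-2003, because levels fall under this scaling while the threshold of -1 stays. The percentile over spots, added after seeing the data, likewise gave 0 reduced by each drug. With normexp, 0 were reduced by DAC and 0 by OR-2003, and the same counts were 0 and 0 with a 4-fold threshold. Without a level threshold, 4 were induced by OR-2100 (MMP10 and MMP13 added) and 2 (MMP2 and MMP10, neither well above background) were 2-fold apart between OR-2100 and DAC. Scaling to the median gave 3 induced by each drug (MMP13 added), no level threshold also gave 3 with DAC and with OR-2003, and quantile normalization gave 3 with OR-2100 (TIMP1 added). Over all settings MMP1 stayed between 2.24 and 5.04 and MMP7 between -2.48 and -0.87 on the log2 scale. The value table is identical to the scanner values and each of the 10 genes has 1 probe, so that the value table and the mean of probes test nothing here. The median of all genes lay between -0.32 and 0.11 over the scalings. No paired analysis was possible because only 1 array was made per condition. For the same reason no replicate could be left out.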

Other observations

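Among 15 other metzincins, the ADAM and ADAMTS proteases related to the metalloproteinases, 2 were induced and 1 was reduced by all 3 drugs, beside 5.27% and 5.21% of all named genes. ADAMTS4, an aggrecanase, had no mock signal well above background and was at least 13.2-fold higher with DAC, 16.1-fold with OR-2003 and 16.2-fold with OR-2100. After normexp correction its log2 difference was 1.47, 1.64 and 1.65, which is below these bounds. ADAM33 was 2.39-fold, 2.32-fold and 3.20-fold higher at the probe with the highest mean signal. Another probe of ADAM33 was the brightest on the mock array and neither of the others was higher, so that its call rests on the choice of probe. ADAM19 was lower by 2.31-fold, 2.49-fold and 2.27-fold. MMP24, a membrane-bound metalloproteinase, likewise had only a bound on the mock side and was at least 3.62-fold, 4.40-fold and 3.61-fold higher, at levels under the threshold of -1.

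The genes with the most similar values over the 4 arrays, among 15977, were CPAMD8 (distance 0.127) and FTCD (0.143) for MMP1, AFAP1L2 (0.0245) and CYP4F3 (0.0496) for MMP9, and H4C5 (0.169) and CLDN2 (0.185) for MMP7. CLDN2, a tight junction claudin, differed from the mock array by -1.69 with DAC, -1.57 with OR-2003 and -2.26 with OR-2100. As with MMP7, its lowest value was on the OR-2100 array. AFAP1L2 differed by 2.79, 2.80 and 2.77, close to MMP9 on each array. These genes were picked for the smallest distance over the same 4 arrays, so that their likeness follows from the choice. With 4 points per gene, these are descriptions.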
